A study of Mus musculus with 6 samples.

Results

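Amyloid precursor and secretase genes were followed as a set of 9 genes, listed by symbol, in the RNASeq and H3K27me3 ChIPSeq data of mouse neural stem cells. The set holds the β-secretase *Bace1* and its relative *Bace2*, the precursor gene family *App*, *Aplp1* and *Aplp2*, the γ-secretase subunit genes *Psen2*, *Ncstn* and *Psenen*, and the lipoprotein gene *Apoe*. The genes are listed by name, and the set was chosen by the RNASeq counts of *Bace2*, which stood among the clearest differences between the groups. The values of *Bace2* in that contrast are therefore a description without a test. All 9 genes were found among the 50686 gene identifiers of the count files, and all 9 were among the 15521 genes with enough reads to be tested.

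RNA was sequenced from 2 cultures of wild-type NSC and from 2 cultures labelled NSC Bmi1Over, which carry the alleles *STOPFloxBmi1* and *NestinCre*. Per the methods of the study, the cultures came from the cerebral hemispheres of E16.5 embryos, and *Bmi1* overexpression came from a cross of the 2 lines. In such a cross, Cre driven by *Nestin* sequences in neural progenitors opens the *Bmi1* transgene. The methods describe growth in EGF and FGF as spheres or as a layer, and do not say which was used for these libraries. For ChIPSeq of H3K27me3, the mark set by Polycomb repressive complex 2, there was 1 peak list per genotype. Counted reads ranged from 18112100 to 61353076 per RNASeq library, and each library's level of a gene is stated in CPM, its count relative to the library's reads after scaling by the trimmed mean of M-values (TMM).

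*Bmi1* itself was at 133.3 and 123.5 CPM in NSC and at 118.6 and 112.6 CPM in the libraries labelled NSC Bmi1Over. Reads on the mouse *Bmi1* gene were thus not higher in any library that the labels give as overexpressing, and every direction below rests on the labels. Whether reads of the transgene can map to that gene is not known from the sources used here, so these counts may not measure the transgene. The 8 neural stem cell markers looked up were expressed throughout, with a summed level between 5948 and 6655 CPM in the 4 libraries, with *Nes* between 915 and 1148 CPM and *Slc1a3* as the largest part of the sum. Their median log2 fold change was −0.23, with 2 of 8 above 0, and none passed the test described below. The summed markers of microglia reached at most 3.10 CPM, those of endothelial cells 8.85 CPM, of mesenchymal cells and pericytes 3.77 CPM, of melanocytes 8.45 CPM and of erythroid cells 0.602 CPM. The neuron markers summed to between 957 and 1029 CPM, most of it *Map2*, the oligodendrocyte lineage markers to between 2481 and 2609 CPM, most of it *Olig1* and *Olig2*, and the astrocyte markers to between 453 and 575 CPM. In such bulk libraries, fewer cells of a type and less RNA per cell cannot be told apart.

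The amyloid precursor protein App is a membrane protein that is cut in steps. BACE1 cuts its outer part at the β-site, or an α-secretase of the ADAM family cuts inside the amyloid-β sequence instead, and γ-secretase then cuts the remaining stub within the membrane. γ-Secretase is built from a catalytic subunit such as Psen2, nicastrin (Ncstn), an Aph1 protein and Pen-2 (the product of *Psenen*), and also cuts Notch receptors, through which it acts on neural stem cells. BACE2 is the close relative of BACE1 and is known for cuts outside the β-site and for substrates such as Pmel, and ApoE carries lipids between the cells of the brain.

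For the promoters, 7 of the 9 genes were found in the RefSeq promoter table of GRCm38.p6, the build of the files, and *Bace1* and *Bace2* were not. The 250 bases before the start site are shown for *App* and *Aplp2*, the precursors with the highest counts, for *Psen2*, the gene of the set that passed the test, and for *Apoe*, which lay the other way. They are written 5′ to 3′ on the minus strand, on which all 4 genes lie, with each GC box (GGGCGG on either strand) in capitals, and are the first listed window of *Psen2* and *Apoe*, which have 2 and 3 in the table.
App, chr16:85173708-85173957: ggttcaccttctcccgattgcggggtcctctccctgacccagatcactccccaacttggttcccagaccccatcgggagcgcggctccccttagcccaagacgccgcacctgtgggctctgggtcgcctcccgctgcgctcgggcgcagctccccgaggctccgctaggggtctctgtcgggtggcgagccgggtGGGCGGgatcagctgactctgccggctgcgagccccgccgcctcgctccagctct
Aplp2, chr9:31211849-31212098: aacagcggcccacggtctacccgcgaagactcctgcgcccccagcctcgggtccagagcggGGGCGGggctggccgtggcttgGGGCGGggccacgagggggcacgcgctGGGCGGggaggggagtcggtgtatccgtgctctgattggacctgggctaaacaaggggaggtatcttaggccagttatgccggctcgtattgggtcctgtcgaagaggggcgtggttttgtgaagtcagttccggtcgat
Psen2, chr1:180256301-180256550: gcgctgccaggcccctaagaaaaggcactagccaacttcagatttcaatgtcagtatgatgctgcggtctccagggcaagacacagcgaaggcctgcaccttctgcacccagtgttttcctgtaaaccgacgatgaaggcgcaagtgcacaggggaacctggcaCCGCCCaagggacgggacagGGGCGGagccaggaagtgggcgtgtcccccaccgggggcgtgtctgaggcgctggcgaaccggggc
Apoe, chr7:19699189-19699438: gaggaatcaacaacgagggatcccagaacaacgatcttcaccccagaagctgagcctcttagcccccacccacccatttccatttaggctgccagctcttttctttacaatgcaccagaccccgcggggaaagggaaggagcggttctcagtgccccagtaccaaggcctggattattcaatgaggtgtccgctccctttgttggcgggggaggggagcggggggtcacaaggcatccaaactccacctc
The GC content of these windows was 70.8% for *App*, 66.4% for *Aplp2*, 62.8% for *Psen2* and 57.2% for *Apoe*, against a median of 52.4% over the 32851 promoter windows of the table. It was 44.8% in the other window of *Psen2* and 51.2% and 52% in those of *Apoe*. The window of *Aplp2* held 3 GC boxes, that of *Psen2* 2 and that of *App* 1. No GC box was found in the window of *Apoe*, while 32.7% of all windows of this length held one. The windows of *Ncstn* and *Psenen* and the other window of *Psen2* held none either. Of all 11 windows of the 7 genes, 4 held a GC box. A TATA box (TATAAA on either strand) was found in none of the 4 windows shown and in 12.4% of all windows. Another window of *Apoe* held it on both strands, at overlapping bases. The CpG count was 0.747, 0.843, 0.612 and 0.394 of that expected from base composition in the same order, where the median window had 0.373.

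The levels of different genes were compared per kilobase of merged exons (FPKM). In NSC, *Aplp2* was by far the highest gene of the set, at 208.6 ± 44.2 FPKM (SD, n = 2), at percentile 99.1 of the tested genes. *Apoe* followed with 49.4 ± 17.4 FPKM, *Ncstn* with 48.8 ± 6.56 FPKM and *App* with 38.4 ± 5.30 FPKM. Next came *Psenen* with 28.7 ± 2.75 FPKM and *Aplp1* with 26.2 ± 1.82 FPKM. The range of *Apoe* over the NSC cultures overlapped those of *Ncstn* and *App*, and the ranges of *Psenen* and *Aplp1* overlapped each other. *Bace1* stood at 10.5 ± 0.935 FPKM. *Psen2*, at 2.28 ± 0.356 FPKM, and *Bace2*, at 2.01 ± 0.140 FPKM, were the lowest and were not separated by their spread. Per kilobase of the longest transcript, however, *Psen2* was at 4.88 and *Bace2* at 2.07 FPKM.

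In the libraries labelled NSC Bmi1Over, *Aplp2* was again the highest, at 316.9 ± 45.4 FPKM. *Ncstn* was at 75.1 ± 12.2 FPKM and *App* at 64.7 ± 8.48 FPKM, with overlapping ranges, and *Aplp1*, *Psenen* and *Apoe* lay together between 25.6 and 40.2 FPKM. *Bace2*, at 6.16 ± 0.369 FPKM, lay above *Psen2*, at 4.23 ± 0.483 FPKM. That last order depends on the length used: per kilobase of the longest transcript, *Psen2* was at 9.07 and *Bace2* at 6.36 FPKM.

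**Figure D1:**
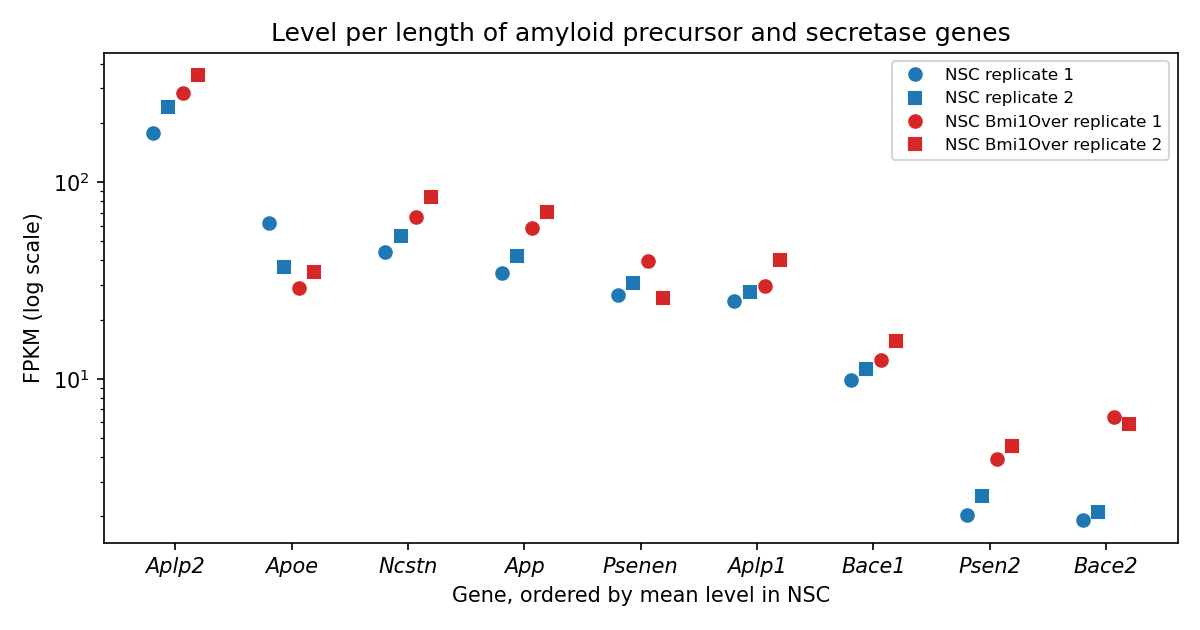
Level of the 9 genes in each of the 4 RNASeq libraries, in FPKM on a log axis, with genes ordered by their mean in NSC (blue, NSC; red, libraries labelled NSC Bmi1Over; circle, replicate 1; square, replicate 2). *Aplp2* lies highest in every library, and *Bace2* moves from 1.91 and 2.11 FPKM to 6.42 and 5.90 FPKM.

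The question asked of RNASeq was which of these genes differed between the cultures labelled NSC Bmi1Over and NSC. Beside *Bace2*, 1 of the other 8 genes, *Psen2*, passed the threshold (an adjusted p under 0.05 in the quasi-likelihood test of edgeR, corrected over 15521 genes by the Benjamini-Hochberg method), and it was higher. In this contrast 2.15% of all tested genes passed, 2.03% upwards and 0.122% downwards, and since the set was drawn from the same contrast, nothing is read from the share of its members. At an unadjusted p under 0.05 there were 7 of these 8 genes, against 3760 of the 15521 tested. With 2 cultures per group, an exact permutation test of a single gene cannot give a two-sided p below 0.333. A fit with 1 culture left out has a single library in one group, which is assumed to vary like the other group, so its adjusted p shows how far the call turns on that culture and no more.

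Of the β-secretase genes, *Bace2* (chromosome 16 of mm10, 97356742 to 97442936, plus strand) was counted at 15.1 and 16.6 CPM in NSC and at 50.7 and 46.5 CPM in the libraries labelled NSC Bmi1Over. Both of the latter lay far above both NSC cultures, while cultures of one group differed little. The mean was 15.8 ± 1.10 CPM (SD, n = 2) against 48.6 ± 2.91 CPM (SD, n = 2), a ratio of 3.07, with a log2 fold change of 1.62 (standard error 0.13). These reads numbered 475 and 420 in NSC and 887 and 2660 in the others, and no annotated exon of another gene overlaps those of *Bace2*. The log2 fold change was between 1.55 and 1.68 with 1 culture left out and 1.47 with library size alone as the scale, which describes the counts that chose the gene and is no support for its difference.

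*Bace1* (chromosome 9, 45838580 to 45864399, plus strand), which encodes the main β-secretase of the brain, was counted at 62.8 and 71.2 CPM in NSC and at 78.8 and 98.8 CPM in the libraries labelled NSC Bmi1Over. The groups did not overlap, and the 2 cultures labelled NSC Bmi1Over differed from each other by 0.33 on the log2 scale. The log2 fold change was 0.41 (standard error 0.15), which did not pass the threshold (adjusted p = 0.142, edgeR). It was 0.24 without NSC Bmi1Over replicate 2 (adjusted p = 0.458) and 0.56 without NSC Bmi1Over replicate 1 (adjusted p = 0.0283, edgeR). *Bace1* shares 975 bp of exons with *Rnf214* on the other strand, and the unstranded count leaves out reads that fall on both genes. It was between 53.0% and 55.7% of the sum of the 2 stranded counts, in which such reads are kept but the 2 genes cannot be told apart. From the stranded sum, the log2 fold change of *Bace1* was 0.37. Per length, *Bace2* stood at 0.193 and 0.188 of *Bace1* in NSC and at 0.518 and 0.379 in the libraries labelled NSC Bmi1Over, a ratio that rests on this partial count of *Bace1*.

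None of the 3 genes of the precursor family passed the threshold. All 3 were higher in both libraries labelled NSC Bmi1Over than in both NSC cultures, as were 29.0% of all tested genes, and all 3 also differed between the cultures of each group. *App* (chromosome 16, 84949685 to 85173766, minus strand) was counted at 450.2 and 547.7 CPM in NSC and at 762.9 and 918.9 CPM in the libraries labelled NSC Bmi1Over. Its log2 fold change was 0.75 (standard error 0.19; adjusted p = 0.0693, edgeR), the largest of the family. With 1 culture left out, the adjusted p of *App* (edgeR) was 0.0445 without NSC replicate 2 and 0.0223 without NSC Bmi1Over replicate 1, but 0.607 without NSC replicate 1 and 0.153 without NSC Bmi1Over replicate 2. *Aplp2* (chromosome 9, 31149557 to 31211815, minus strand), the App relative found in most tissues, was counted at 1042 and 1409 CPM in NSC and at 1673 and 2051 CPM in the others. Its log2 fold change was 0.60 (standard error 0.23; adjusted p = 0.161, edgeR), and the NSC cultures already differed by 0.44 on the log2 scale. Without NSC replicate 1 it was 0.40. *Aplp1* (chromosome 7, 30434982 to 30445535, minus strand), the member known from neurons, was counted at 75.1 and 82.9 CPM in NSC and at 89.7 and 121.4 CPM in the others. For *Aplp1* the log2 fold change was 0.42 (standard error 0.16; adjusted p = 0.163, edgeR), about as large as the 0.44 between the 2 cultures labelled NSC Bmi1Over. It was 0.18 without NSC Bmi1Over replicate 2 (adjusted p = 0.577) and 0.62 without NSC Bmi1Over replicate 1 (adjusted p = 0.0219, edgeR). Per length, *Aplp2* was at 5.12 and 5.69 times *App* in NSC and at 4.85 and 4.94 times in the others, and *App* was at 1.39 and 1.53 times *Aplp1* in NSC and at 1.97 and 1.76 times in the others. Of the neuron markers, 1 of 7 tested passed the threshold, the synaptic vesicle gene *Syt1*, at 9.13 and 27.2 CPM in NSC and 66.5 and 95.8 CPM in the others, and its part in the level of *Aplp1* was not tested. The median log2 fold change of these 7 markers was −0.07, with 3 of them above 0, and *Tubb3*, *Dcx* and *Snap25* had values of −0.22, −0.21 and −0.48.

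Among the γ-secretase genes, *Psen2* (chromosome 1, 180227004 to 180263438, minus strand), the gene of a catalytic subunit, was counted at 8.78 and 10.96 CPM in NSC and at 16.9 and 19.8 CPM in the libraries labelled NSC Bmi1Over. The groups did not overlap, with a mean of 9.87 ± 1.54 CPM (SD, n = 2) against 18.3 ± 2.09 CPM (SD, n = 2). *Psen2* rose by a log2 fold change of 0.90 (standard error 0.18; adjusted p = 0.0456, edgeR). With DESeq2's size factors the call was lost (adjusted p = 0.0518, edgeR), at a log2 fold change of 0.91. The call held with DESeq2's Wald test (adjusted p = 0.00194, DESeq2), with library size alone and without a filter beyond 1 read. The log2 fold change was 0.75 without NSC replicate 1 and 0.78 without NSC Bmi1Over replicate 2, where the call was lost too. It was 1.06 without NSC replicate 2 and 1.01 without NSC Bmi1Over replicate 1. *Ncstn* (chromosome 1, 172066013 to 172082795, minus strand), the subunit that receives substrates, was counted at 175.4 and 212.3 CPM in NSC and at 264.3 and 332.8 CPM in the others. Its log2 fold change was 0.62 (standard error 0.17; adjusted p = 0.0838, edgeR). Leaving out 1 culture gave *Ncstn* an adjusted p (edgeR) of 0.0469 without NSC replicate 2 and 0.0205 without NSC Bmi1Over replicate 1, but 0.686 without NSC replicate 1 and 0.218 without NSC Bmi1Over replicate 2. *Psenen* (chromosome 7, 30561863 to 30563627, minus strand), the gene of the small subunit Pen-2, was counted at 34.1 and 39.1 CPM in NSC and at 50.6 and 32.7 CPM in the others. It was the gene of the set whose groups overlapped, because the 2 cultures labelled NSC Bmi1Over lay on either side of NSC, and its log2 fold change of 0.18 (standard error 0.20) turned to −0.17 without NSC Bmi1Over replicate 1. Reads on both *Psenen* and its neighbours on the other strand were left out too, so that its count was between 84.7% and 88.6% of the stranded sum.

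The Aph1 genes, which lie outside the set, were looked up from a list of pathway genes, and none of them passed the threshold. Of these, *Aph1a* was at 20.6 ± 1.99 FPKM in NSC, *Aph1b* at 6.54 ± 0.930 FPKM and *Aph1c* at 0.484 ± 0.0392 FPKM, an order that also held in the libraries labelled NSC Bmi1Over.

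*Apoe* (chromosome 7, 19696109 to 19699188, minus strand) lay the other way. It was counted at 131.9 and 79.2 CPM in NSC and at 62.2 and 74.2 CPM in the libraries labelled NSC Bmi1Over. The groups did not overlap, but NSC replicate 1 stood apart from the other 3 cultures, and the difference between the NSC cultures (0.74 on the log2 scale) was larger than that between the groups. The log2 fold change was −0.63 (standard error 0.22; adjusted p = 0.137, edgeR), and it was −0.22 without NSC replicate 1 (adjusted p = 0.925, edgeR). Without NSC replicate 2 it was −0.96 (adjusted p = 7.89e-04, edgeR), a fit in which the culture that stood apart is the only NSC library. Astrocytes are a main source of ApoE in the brain, and of their markers 1 of 7 tested passed the threshold. This was *Aldh1l1*, a folate enzyme, which fell by a log2 fold change of −0.86 (122.2 and 94.2 CPM in NSC, 66.0 and 53.3 CPM in the others; adjusted p = 0.0440, edgeR), while the summed astrocyte level was 575, 535, 453 and 563 CPM, with *Slc1a2* as its largest part. The median log2 fold change of the 7 markers was −0.25, with 2 of them above 0, and *Aldoc* had a value of −0.80 (adjusted p = 0.0508, edgeR). The part of these genes in the level of *Apoe* was not tested. Of the 8 markers of microglia, another source of ApoE, *C1qa* and *Itgam* were at 0 in all 4 libraries and 5 others had at most 5 reads in any library. *P2ry12* was counted at 1.27 and 1.74 CPM in NSC and at 2.23 and 2.96 CPM in the others.

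Of the 8 genes other than *Bace2*, 6 were higher in both libraries labelled NSC Bmi1Over than in both NSC cultures, as were 29.0% of all tested genes, and 1 was lower in both, as were 30.0%. The set was drawn from this contrast, so nothing is read from these shares. The cultures of a group also differed among themselves. Of the 9 genes, 8 were higher in NSC replicate 2 than in NSC replicate 1, as were 49.8% of all tested genes. Likewise, 7 of the 9 were higher in NSC Bmi1Over replicate 2 than in replicate 1, as were 49.7%. The difference between the NSC cultures came to 0.28 on the log2 scale for *App*, 0.32 for *Psen2* and 0.28 for *Ncstn*, and 0.14 for *Bace2*. Between the 2 cultures labelled NSC Bmi1Over, *App* differed by 0.27, *Psen2* by 0.23 and *Ncstn* by 0.33 towards replicate 2, and *Bace2* by −0.12. In NSC, 11.2% and 13.7% of reads could not be mapped, and in the libraries labelled NSC Bmi1Over 16.2% and 17.6% could not. This share was ordered over the 4 libraries in the same way as the levels of *App*, *Aplp1*, *Aplp2*, *Bace1*, *Psen2* and *Ncstn*. Its part in these differences was not tested.

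**Figure D2:**
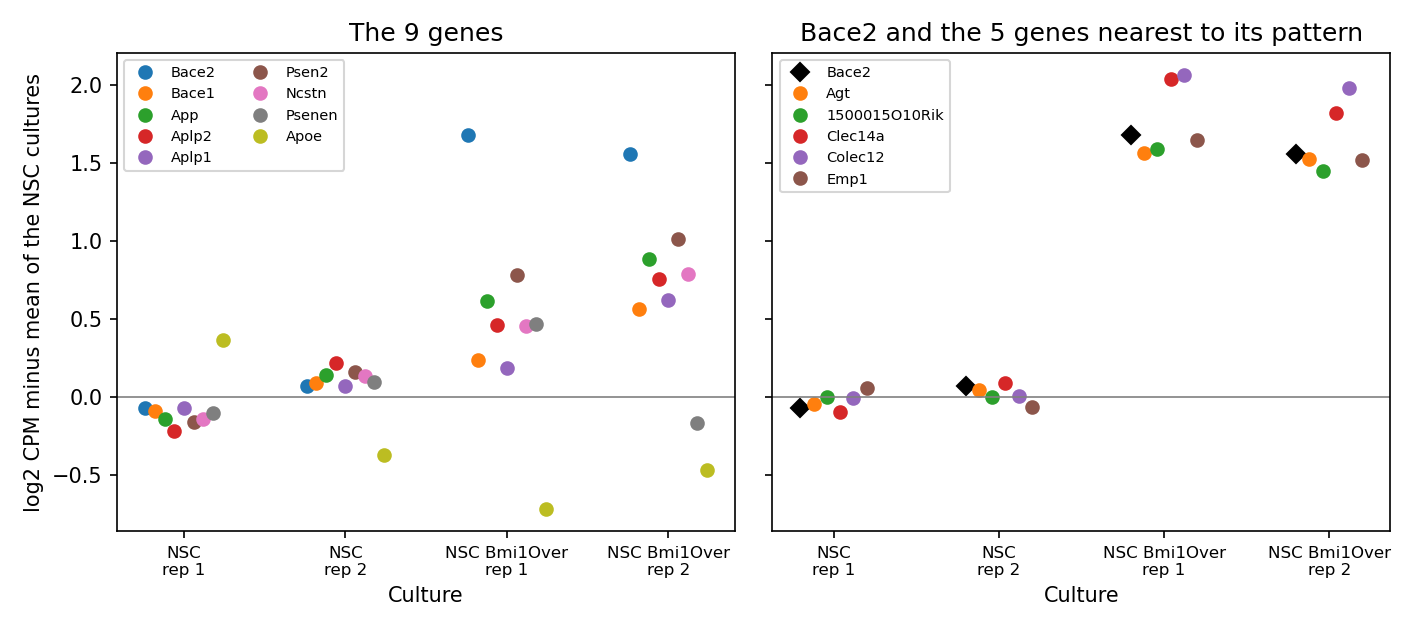
Level of each gene in each culture, as log2 CPM minus the mean of the 2 NSC cultures, for the 9 genes (left) and for *Bace2* with the 5 genes nearest to its pattern (right), where each point is 1 culture. On the left, *Bace2* stands alone near the top in both cultures labelled NSC Bmi1Over, most other members spread between them and NSC, and *Apoe* lies highest in NSC replicate 1. On the right, *Clec14a* and *Colec12* lie above *Bace2* in both cultures labelled NSC Bmi1Over.

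The genes whose pattern over the 4 libraries was most like that of *Bace2*, by the distance between values of log2(CPM + 0.5) centred on each gene's mean, among 13320 genes, were *Agt*, *1500015O10Rik*, *Clec14a*, *Colec12* and *Emp1*. *Agt*, which encodes angiotensinogen, was nearest at a distance of 0.10 on the log2 scale, with 15.6 and 16.6 CPM in NSC against 47.4 and 46.2 CPM in the others. The distance was 0.13 for *1500015O10Rik*, 0.16 for *Clec14a*, 0.16 for *Colec12* and 0.19 for *Emp1*. Without the offset of 0.5 CPM, a choice made after seeing the data, 3 of these 5 genes stayed among the nearest 5, with *Pkib* and *Vgll2* beside them. The low-count genes *Clec14a* and *Colec12* then lay at a distance of 0.32 and 0.42, in places 24 and 58. These genes were picked for their likeness to a gene that was itself chosen for this difference, so their levels are a description.

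Of the 4 protein-coding genes within 250 kb of *Bace2*, 1 had enough reads to be tested, and it did not pass the threshold. *Dscam*, a neuronal adhesion gene 185990 bp away, was counted at 77 and 92.3 CPM in NSC and at 78.4 and 128.9 CPM in the libraries labelled NSC Bmi1Over (log2 fold change 0.30, standard error 0.22; adjusted p = 0.418, edgeR). *Mx1*, which ends 4099 bp from *Bace2*, and *Tmprss2* had at most 9 and 8 reads in any library, and *Fam3b* had 0 in all 4, so that a difference at these 3 genes was not detectable at this depth.

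**Figure D3:**
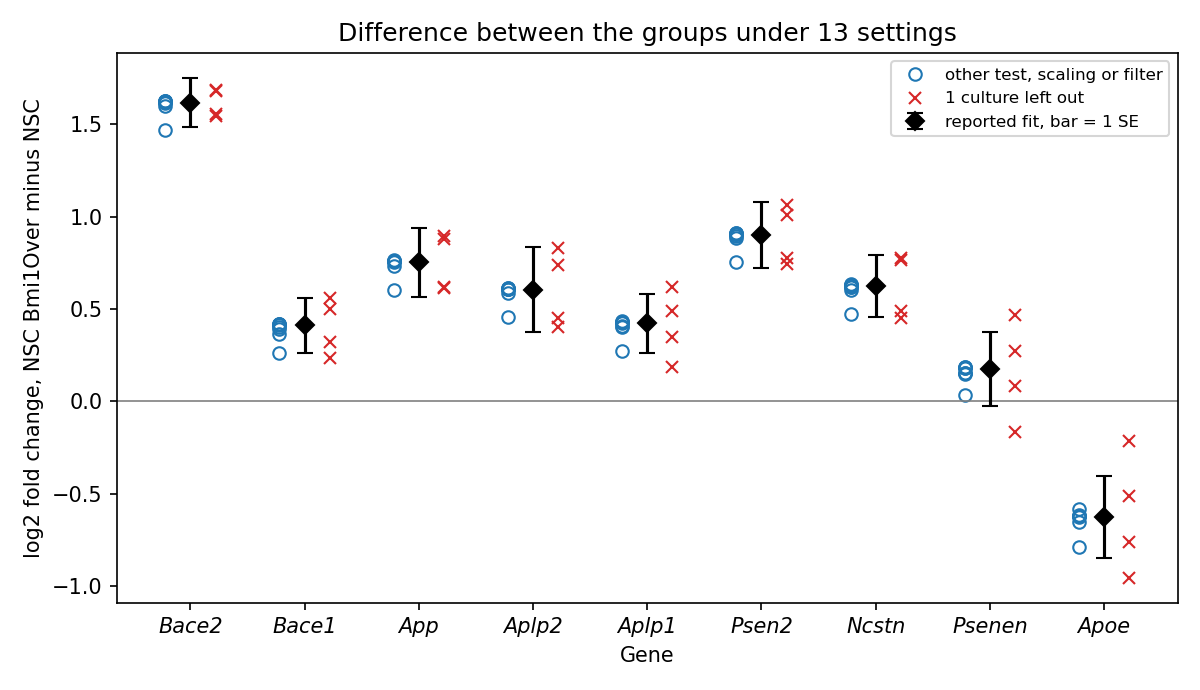
Log2 fold change of the 9 genes between the libraries labelled NSC Bmi1Over and NSC in the reported fit (diamond, with a bar of 1 standard error), under another test, scaling, filter or a replicate block (circles) and with 1 culture left out (crosses). *Bace2*, by which the set was chosen, lies between 1.47 and 1.68, *Apoe* ranges from −0.96 to −0.22, and *Psenen* lies on both sides of 0.

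The other genes of the pathway were taken by function, as 75 genes in 8 lists, of which 71 were tested. The lists were made with earlier results of these data known. Nothing is therefore read from their shares and medians, or from those of the members. *Clu* and *Cd44* passed the threshold, both upwards, and none passed it downwards, where 2.15% of all tested genes passed. The median log2 fold change of the 71 genes was 0.40, beside −0.01 for all tested genes and 0.51 for the 8 members other than *Bace2*. A positive log2 fold change was found for 57 of the 71. In 40 of them the libraries labelled NSC Bmi1Over lay above both NSC cultures, and in 7 below, where the shares over all tested genes were 29.0% and 30.0%. Within the groups, 53 of the 71 (74.6%) were higher in NSC replicate 2 than in replicate 1, and 61 (85.9%) in NSC Bmi1Over replicate 2 than in replicate 1, against 49.8% and 49.7% of all tested genes. The share of unmapped reads was also higher in replicate 2 of each group and in the libraries labelled NSC Bmi1Over. Its part in these values was not tested.

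The α-secretase genes had a median log2 fold change of 0.44 and none of the 3 was called. *Adam10*, the main α-secretase of neurons, was counted at 279.3 and 366.6 CPM in NSC and at 486.4 and 576.1 CPM in the libraries labelled NSC Bmi1Over (log2 fold change 0.72; adjusted p = 0.0762, edgeR). *Adam9* was counted at 296.4 and 324.1 CPM in NSC and at 332.4 and 392.1 CPM in the others (log2 fold change 0.22). The other γ-secretase genes and modulators had a median of 0.38, with none of 6 called, and *Tmed10*, a cargo protein known to modulate γ-secretase, was at 249.4 and 302.7 CPM in NSC and at 373.4 and 467.7 CPM in the others.

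Of the 9 adaptors and binding proteins of App that were tested, none was called, and their median was 0.01. Their most abundant members, *Itm2c* and *Itm2b*, had log2 fold changes of 0.49 and 0.45, while *Apba2*, an adaptor of the App tail, was at 84.0 and 77.7 CPM in NSC and at 66.3 and 62.9 CPM in the libraries labelled NSC Bmi1Over. Of the 11 sorting and trafficking genes, none was called, with a median of 0.30. *Rtn3* and *Rtn4*, reticulons that bind BACE1, had log2 fold changes of 0.61 and 0.54, and *Vps35*, the retromer subunit, one of −0.22. Of the 4 tested proteases that degrade or clear amyloid-β, none was called. The median of these proteases was 0.30. *Ctsb*, the lysosomal protease cathepsin B, had a log2 fold change of 0.47, and *Ide*, the insulin-degrading enzyme, had a log2 fold change of 0.10 with overlapping groups.

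In the list of ApoE receptors and lipid transport genes, 1 of 14 was called, and the median was 0.58. *Clu*, which encodes the lipoprotein clusterin (apolipoprotein J), was counted at 11.6 and 13.9 CPM in NSC and at 31.0 and 33.7 CPM in the libraries labelled NSC Bmi1Over. *Clu* rose by a log2 fold change of 1.35 (standard error 0.15; adjusted p = 0.00792, edgeR). *Abca1*, which loads lipid onto ApoE, had a log2 fold change of −0.33 (adjusted p = 0.215, edgeR). Of the 6 markers of choroid plexus, a tissue rich in *Clu*, 3 were tested, and *Ttr*, *Kl* and *Clic6* had too few reads. The threshold was passed by 2 of these 3, where 2.15% of all tested genes passed. The 2 were *Folr1*, at 0.982 and 0.791 CPM in NSC and 5.94 and 4.55 CPM in the others, and *Aqp1*, at 0.444 and 0.554 CPM against 1.31 and 2.12 CPM. *Otx2* was not called (adjusted p = 0.374, edgeR), and its groups overlapped. The summed list was at 21.4, 11.7, 33.3 and 23.6 CPM, most of it *Otx2*, and *Ttr*, the defining marker, was at no more than 0.175 CPM in any library. The part of such cells in the level of *Clu* or *Bace2* was not tested.

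The known substrates of the BACE enzymes had a median log2 fold change of 0.52, with none of 12 called. *Sez6* and *Sez6l*, neuronal membrane proteins cut by BACE1, were at 325.9 and 429.7 CPM and at 253.1 and 370.6 CPM in NSC, with log2 fold changes of 0.40 and 0.68. *Pmel*, the pigment cell substrate of BACE2, was at 1.33 and 1.23 CPM in NSC and at 1.49 and 2.03 CPM in the libraries labelled NSC Bmi1Over. Of the 14 γ-secretase substrates, 1 was called, with a median of 0.43. *Cd44*, a hyaluronan receptor, was counted at 52.9 and 60.5 CPM in NSC and at 88.4 and 101.3 CPM in the others, and rose by a log2 fold change of 0.74 (standard error 0.13; adjusted p = 0.0397, edgeR). Without NSC replicate 1 or without NSC Bmi1Over replicate 2 the call of *Cd44* was lost, whereas *Clu* was called under every alternative run. The Notch receptors *Notch1*, *Notch2* and *Notch3* had log2 fold changes of 0.34, 0.33 and 0.07, with none called.

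**Figure D4:**
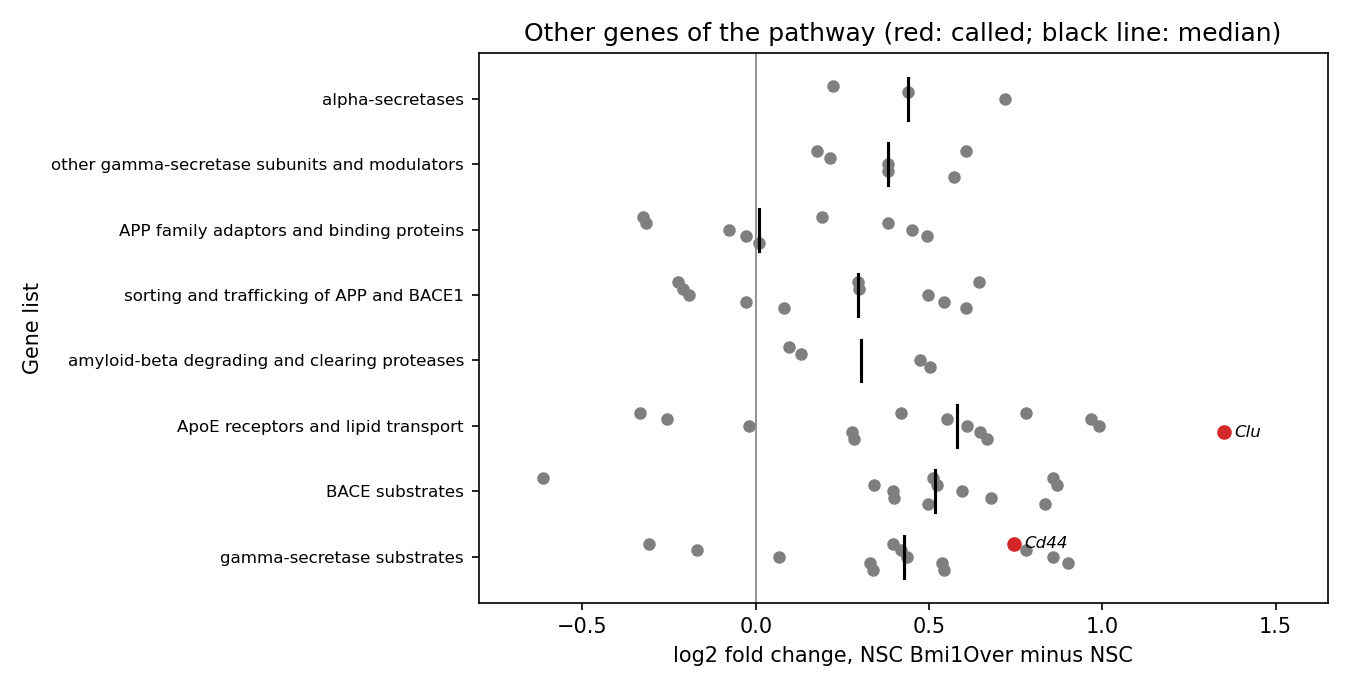
Log2 fold change between the libraries labelled NSC Bmi1Over and NSC of the tested genes in the 8 pathway lists, with 1 point per gene, a black line at the median of each list and genes that passed the threshold in red. *Clu* (1.35) and *Cd44* (0.74) are the called genes, and the medians run from 0.01 for the App adaptors to 0.58 for the ApoE receptors and lipid transport genes.

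ChIPSeq was then used to ask whether any of the 9 genes carried H3K27me3 in these cells. No peak lay within 5 kb of a TSS of any of them in either list, and none overlapped a gene body. Of all 21841 protein-coding genes counted, 8.87% had such a peak in NSC and 4.40% in NSC Bmi1Over. The nearest peak to a TSS of *Bace2* was 194.5 kb away in NSC, a peak of 331 bp with a fold enrichment of 3.55, and 346.2 kb away in NSC Bmi1Over. For *App* the nearest peak was 2273 kb away in NSC and 8899.4 kb away in NSC Bmi1Over. *Aplp1* lay closest to the mark, with a peak of 4661 bp and a fold enrichment of 4.51 that lay 6.8 kb from its nearest TSS in NSC, where NSC Bmi1Over had a peak of 278 bp at 8.1 kb. The distance was 21.7 kb for *Aplp2* and 46.6 kb for *Psen2* in NSC, and 211.7 kb and 1119.8 kb in NSC Bmi1Over, whose list is the shorter, with 6810 peaks against 12982. Among the 74 pathway genes looked up, 14 had a promoter peak in NSC and 6 in NSC Bmi1Over, among them *Cntn2*, a BACE1 substrate, with 6 and 5 peaks, and *Pltp*, a lipid transfer gene, with 4 and 2. *Clu* and *Cd44* had none in either list. With 1 library per genotype, a difference between them cannot be set against replicates, the methods state unequal read totals for the ChIPSeq libraries of the 2 genotypes, of which the weaker replicate was left out by the authors, and a region without a peak may still hold the mark below the threshold of the peak caller.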

How the data were processed

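RNASeq libraries of 2 NSC and 2 NSC Bmi1Over cultures and 1 H3K27me3 peak list per genotype were used, and groups followed the labels. Trim Galore and STAR (mm10) were the authors' tools for trimming and alignment, and the authors deposited raw counts of reads per gene. For ChIPSeq, the authors aligned reads with Bowtie2 2.3.4 and called broad peaks with MACS2, per library, and the deposited lists give a fold enrichment (a ratio to background), −log10 p and −log10 q. The deposited display score was not used. The STAR version and annotation are not given in the sources used here.

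Between 27.8% and 34.1% of reads stood in rows that name no gene and stayed out of library sizes. GENCODE vM21 matched 50462 of 50686 identifiers. Unstranded counts were filtered with filterByExpr, normalised by TMM and fitted with edgeR 4.0.16 (R 4.3.3) by group, with p adjusted by Benjamini-Hochberg and a threshold of 0.05. Standard errors came from the F statistic of each gene and its log2 fold change. FPKM was TMM-scaled CPM per kilobase of merged exons. Libraries of one group differed beyond sampling noise, with a chi-square per degree of freedom of 24.8 within NSC and 35.1 within NSC Bmi1Over. Across the groups this value ran from 27.6 to 238, and it was not corrected for read depth. DESeq2 1.42.0 served as an alternative, and peaks and sequences were handled in Python 3.11.15, with a minimum overlap of 1 bp. The edgeR fit was tested on simulated counts.

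The members and lists were chosen with earlier results of these data known. Named are the 9 members, *Bmi1*, called pathway genes (or the 2 most abundant of a list without any), neighbours of *Bace2* within 250 kb and the 5 genes most like it. The Aph1 genes, *Apba2*, *Vps35*, *Abca1*, *Pmel*, the Notch genes, *Cntn2*, *Pltp* and the marker genes were named for their role after their values were seen. The study calls its RNASeq cultures biologically independent, the labels name no animal, and p-values measure the spread between these cultures. *Apbb3* was not analysed here, and some pathway genes that this rule would name are not reported here.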

Additional observations from a re-analysis of the deposited data

How the results depend on the processing

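The reported fit tested 15521 genes, and fits with a culture left out tested between 15871 and 16356. The number of genes called was 334 in the reported fit and 1434 with DESeq2's Wald test. It was 244 with DESeq2's size factors, 537 with library size alone, 3459 with the replicate block and 2356 of 28541 without a filter beyond 1 read. With each culture left out it ranged from 176 to 2546. Of the 8 members other than *Bace2*, 1 was called in the reported fit, 5 with DESeq2, 0 with DESeq2's size factors, 5 without the filter, 7 with the replicate block and between 0 and 5 with a culture left out. Pathway genes called, 2 in the reported fit, numbered 22 with DESeq2, 7 with library size alone, 22 without the filter, 36 with the replicate block and between 1 and 28 with a culture left out. The cause was not tested. The share of calls that were higher was 94.3% in the reported fit, 64.4% with library size alone (where all genes had a median of −0.17 on the log2 scale), 80.3% without the filter and 70.3% with the replicate block. The log2 fold change of *Bace2*, by which the set was chosen, was 1.47 with library size alone and between 1.55 and 1.68 with a culture left out, given as values only. *Psenen* ranged from −0.17 without NSC Bmi1Over replicate 1 to 0.47 without NSC Bmi1Over replicate 2. *App*, *Aplp2*, *Ncstn* and *Apoe* were called with DESeq2 and without the filter. The replicate numbers are shared by the groups, but nothing states that they pair the cultures. Deviations of same-numbered cultures correlated at 0.235 over 15521 genes, with 2 pairs only, and the block is therefore given here alone. With the longest transcript as length, all 9 members kept their place in the order of levels in NSC and 2 of 9 in the libraries labelled NSC Bmi1Over. No member had a promoter peak under any peak setting (window of 1 kb, −log10 q of at least 3, length of at least 1000 bp, or the greater part of the peak inside the window).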
